A study of Homo sapiens with 10 samples.

Results

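The 31 genes described here encode enzymes and regulators that make cholesterol and fatty acids, and they were taken as a fixed list of names. A gene entered if a probe set of the array was annotated to it alone, and of several probe sets the brightest, averaged over the 10 arrays, stood for it. This gave 28 members of 19775 measured genes. All 28 passed the filter on low values. FDFT1 was not analysed here, and CYP51A1 and FADS1 had only probe sets that also carry the name of a second gene.

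The cells were MDA-MB-231, an established human triple-negative breast cancer line, measured on Affymetrix expression arrays with 2 arrays per line. T2 and T3 are tumours labelled resistant to SM-164, and T6 and T8 are tumours labelled sensitive. All 4 were xenografts in SCID mice given SM-164 (5 mg/kg by the intravenous route, 5 days a week over 2 weeks), and cells were isolated from the regrown tumours. The parental cells, labelled sensitive, were kept in standard culture. The labels give no step that removes host mouse cells and no number of animals behind a tumour. SM-164 is a Smac mimetic, a compound that antagonises the IAP proteins, which restrain cell death. No xenograft grown without the drug was analysed here, so growth in the mouse, treatment and cell isolation cannot be told apart in any comparison with the parental cells. Whether the 2 arrays of a line hold RNA of separate cultures is not stated, and p-values over arrays therefore reflect a spread that may be technical.

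Cells build cholesterol from acetyl-CoA through mevalonate, squalene and lanosterol, and they build fatty acids from the same precursor through malonyl-CoA. Most of these enzymes are transcribed under SREBP factors, which SCAP carries out of the endoplasmic reticulum when membrane sterol is low and which INSIG proteins hold back when it is high. SREBF2 is best known for driving the sterol genes and SREBF1 for the fatty acid genes, and tumour cells commonly rely on both for new membrane.

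The promoters below show the DNA just before the start of 3 members, one regulator and the members with the largest rise and the largest fall in the tumours. They are RefSeq sequences of build GRCh38.p14, the 250 bases before the annotated start, written 5′ to 3′ on the strand of the gene. Capitals mark the sterol regulatory element TCACNCCAC and the CCAAT box (CCAAT), each on either strand, where ATTGG is a CCAAT box on the other strand. SREBF2 lies at chr22:41832855-41833104 on the + strand, STARD4 at chr5:111512536-111512785 on the - strand and EBP at chrX:48521558-48521807 on the + strand.
SREBF2: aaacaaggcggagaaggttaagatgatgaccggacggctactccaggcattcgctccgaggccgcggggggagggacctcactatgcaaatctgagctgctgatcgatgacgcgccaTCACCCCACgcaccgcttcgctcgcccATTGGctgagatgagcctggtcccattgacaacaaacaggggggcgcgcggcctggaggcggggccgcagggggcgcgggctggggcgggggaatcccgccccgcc
STARD4: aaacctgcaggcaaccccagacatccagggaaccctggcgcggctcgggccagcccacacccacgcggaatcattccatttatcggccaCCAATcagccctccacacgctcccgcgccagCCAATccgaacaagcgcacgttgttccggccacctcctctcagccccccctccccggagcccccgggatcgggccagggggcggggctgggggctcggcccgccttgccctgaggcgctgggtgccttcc
EBP: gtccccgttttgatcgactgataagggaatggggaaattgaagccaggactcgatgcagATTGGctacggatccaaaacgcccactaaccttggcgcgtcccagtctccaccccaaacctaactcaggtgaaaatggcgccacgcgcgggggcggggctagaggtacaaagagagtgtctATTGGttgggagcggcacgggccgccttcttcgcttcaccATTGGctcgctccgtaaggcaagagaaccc
A promoter was found for 25 of the 28 members, by symbol, and not for ACAT2, SQLE and FASN. TCACNCCAC occurred in 1 of these 25, SREBF2, and in 0.883% of all 35116 promoters of that length. CCAAT occurred in 17 of the 25 and in 32% of all promoters, and the GC box GGGCGG in 23 of the 25 and in 42.6% of all, each on either strand. SREBF2 was shown because it held a sterol regulatory element, whereas STARD4 and EBP were chosen after their values were seen. The 35116 promoters were not limited to genes tested here, whereas all members passed the filter on low values. The shares therefore do not compare the members with other expressed genes. These letters describe the windows and do not show binding. Other forms of the sterol regulatory element and sites outside the 250 bases were not searched, so a window without TCACNCCAC does not show that a member lacks one.

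Values are log2 expression as deposited by the authors, so a difference of 1 is a doubling, and calls rest on limma, with a Benjamini-Hochberg adjusted p under 0.05 over all 14929 genes tested. Levels of different genes are not compared, since each probe set has its own brightness. The 4 breast cancer line markers VIM, CD44, EGFR and FN1 ranged from 10.5 to 14.4 on all arrays. Of 2 receptors listed as low, PGR stayed under log2 5 on each array. The other, ESR1, passed the filter on low values, with values up to 6.78. Of 8 adipocyte markers, ADIPOQ, FABP4 and LEP stayed under log2 5 on every array. The mean over the 8 ran from 5.48 to 5.74 in resistant tumours, from 5.46 to 5.64 in sensitive tumours and from 5.66 to 5.80 in parental cells. Against parental cells 0 adipocyte markers rose and 1 fell (CFD). Of 8 macrophage markers 0 rose and 3 fell, with CD163 and TYROBP under log2 5 throughout and means of 5.66 to 5.88 in resistant tumours, 5.71 to 5.90 in sensitive tumours and 5.95 to 6.07 in parental cells. Of 6 endothelial markers 4 rose and 0 fell (CDH5, TIE1, KDR and ROBO4), with means of 5.88 to 6.07 in resistant tumours, 5.99 to 6.46 in sensitive tumours and 5.75 to 5.80 in parental cells. Of 7 markers of fibroblasts and pericytes 0 rose and 2 fell, with LUM under log2 5 throughout and means of 6.24 to 6.32, 6.11 to 6.22 and 6.28 to 6.29 in the same groups. Between resistant and sensitive tumours over arrays 2 endothelial markers were higher and 3 lower, 1 macrophage marker was higher and 2 lower, 2 fibroblast and pericyte markers were higher and 0 lower, and 0 adipocyte markers were called. Of the 4 breast cancer line markers 2 were higher there, and VIM and EGFR were higher in tumours than in parental cells. Over all genes tested 25.5% rose and 16.8% fell against parental cells. Between resistant and sensitive tumours over arrays 4.76% were higher and 14.2% lower. The part of these markers in the results below was not tested, and neither was any signal from mouse RNA on these human probes.

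**Figure D1:**
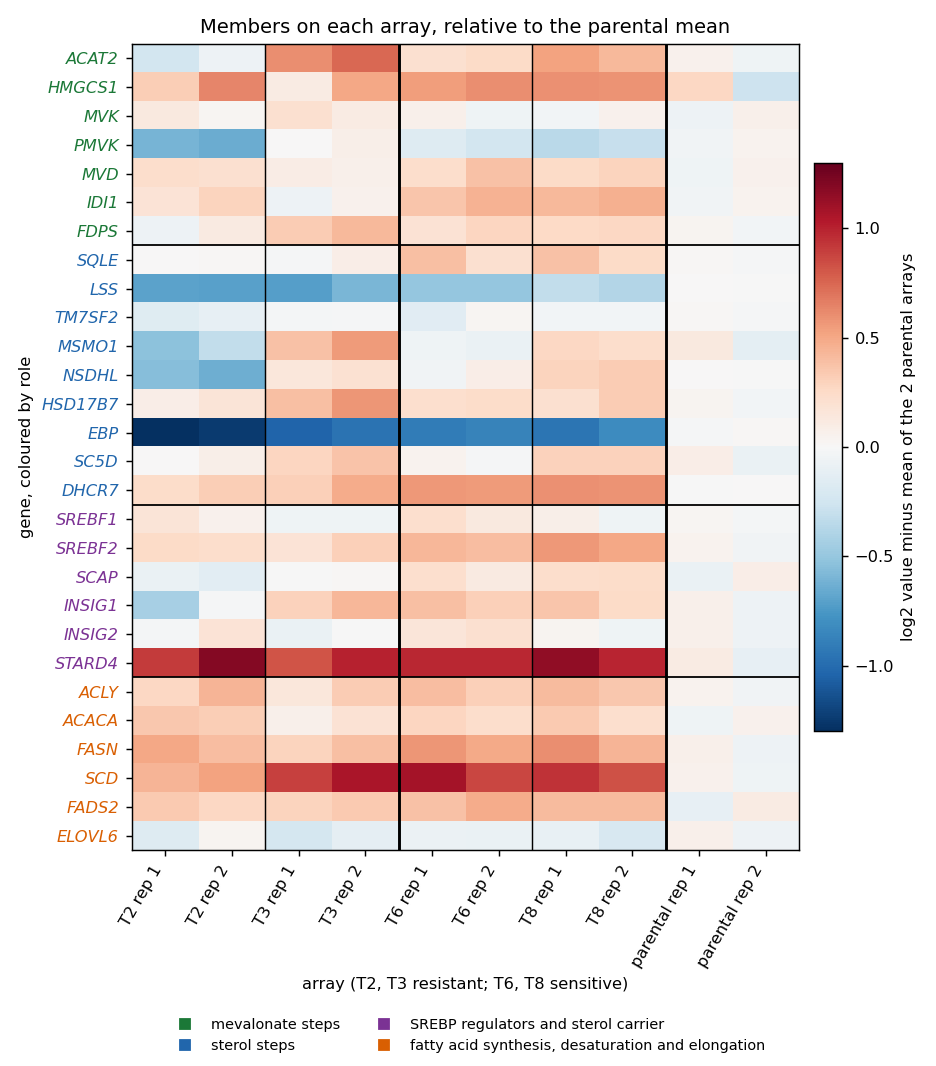
Heat map of the 28 members (rows, grouped by role) on the 10 arrays (columns), as the log2 value minus the mean of the 2 parental arrays. STARD4 and SCD are red on all 8 tumour arrays, EBP and LSS are blue on all 8, and MSMO1, NSDHL, PMVK and ACAT2 are lower in T2 than in T3.

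Setting the 4 tumours against parental cells asked whether lipid synthesis genes differ in cells that had been through the mouse. Of the 28 members 15 rose and 3 fell. Over all genes tested 25.5% rose and 16.8% fell. The median member differed by 0.21 and the median gene by 0.0015 on the log2 scale. There were 8 tumour arrays against 2 parental arrays, and differences are given with the standard error (SE) of the fit. That SE comes from the spread between arrays of a line and leaves out the spread between tumours. The calls against parental cells therefore describe these 4 tumours and not regrown tumours at large. In RNA of a whole cell population, fewer cells of a type and less RNA per cell cannot be told apart.

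In fatty acid synthesis 5 of 6 measured members rose and none fell (median 0.35), against 25.5% and 16.8% of all genes. SCD, the desaturase that makes oleic and palmitoleic acid, stood at 10.11 and 10.19 in T2, 10.55 and 10.73 in T3, 10.74 and 10.53 in T6, 10.60 and 10.50 in T8, and, in the parental cells, at 9.72 and 9.61. Every tumour array lay above both parental arrays, T2 least so, and the difference was 0.83 ± 0.07 (adjusted p = 1.9e-07). All 4 SCD probe sets rose, by 0.47 to 0.83, in a fit over all probe sets that is used wherever several probe sets of a gene are compared. FASN, the synthase that builds palmitate, stood at 9.57 and 9.47 in T2, 9.36 and 9.47 in T3, 9.65 and 9.56 in T6, 9.68 and 9.52 in T8, and, in the parental cells, at 9.14 and 9.005. It rose by 0.46 ± 0.07 (adjusted p = 5.4e-05), again without overlap, although a second, dimmer FASN probe set was not called (-0.26 ± 0.12). FADS2, which desaturates polyunsaturated fatty acids, stood at 8.97 and 8.90 in T2, 8.92 and 8.97 in T3, 9.01 and 9.11 in T6, 9.04 and 9.04 in T8, and, in the parental cells, at 8.52 and 8.74. It rose by 0.36 ± 0.07 (adjusted p = 0.00052). ACLY, which splits citrate into cytosolic acetyl-CoA, rose by 0.33 ± 0.06, and ACACA, the carboxylase that makes malonyl-CoA, rose by 0.25 ± 0.06. The elongase ELOVL6 was the exception at -0.12 ± 0.06, not called.

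Among the mevalonate enzymes 5 of 7 rose and 1 fell (median 0.22), against 25.5% and 16.8% of all genes. HMGCS1, which makes HMG-CoA, stood at 6.46 and 6.77 in T2, 6.24 and 6.64 in T3, 6.68 and 6.74 in T6, 6.73 and 6.72 in T8, and, in the parental cells, at 6.41 and 5.86. Its difference of 0.49 ± 0.14 passed the test (adjusted p = 0.01), but the parental arrays lay far apart, T3 replicate 1 fell between them, and the difference was 0.21 and not called without parental replicate 2. The dimmer HMGCS1 probe set was not called (-0.18 ± 0.16). ACAT2, which joins acetyl-CoA units at the entry of the pathway, rose by 0.31 ± 0.06 and the isomerase IDI1 by 0.27 ± 0.05. The tumours were not alike in either gene. ACAT2 differed by -0.15 in T2 and IDI1 by -0.0063 in T3, neither called. The IDI1 probe set may match other transcripts, and of its other 3 sets one rose (0.15 ± 0.06) and 2 were not called (-0.0047 ± 0.14 and -0.02 ± 0.08). FDPS, which makes farnesyl diphosphate, rose by 0.22 ± 0.06 and the decarboxylase MVD by 0.22 ± 0.08 (adjusted p = 0.0482). The call of MVD ended when any one of the 10 arrays was left out (0.16 to 0.27). PMVK, the phosphomevalonate kinase, stood at 8.89 and 8.84 in T2, 9.49 and 9.57 in T3, 9.32 and 9.25 in T6, 9.14 and 9.19 in T8, and, in the parental cells, at 9.44 and 9.54. It fell by 0.28 ± 0.06 (adjusted p = 0.0014), although T3 lay level with the parental cells. MVK, the mevalonate kinase, was not called by its brightest probe set (0.06 ± 0.06), whereas 2 of its other 3 probe sets rose, by 0.46 ± 0.07 and 0.70 ± 0.09.

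The sterol steps after squalene went both ways, with 3 of 9 measured members higher and 2 lower (median 0.05). These counts lay near the shares of all genes, 25.5% and 16.8%. EBP, the isomerase that shifts a double bond of the sterol ring, had the largest fall of any member. It stood at 9.54 and 9.59 in T2, 9.79 and 9.88 in T3, 9.93 and 9.97 in T6, 9.88 and 10.02 in T8, and, in the parental cells, at 10.82 and 10.84. Even the highest tumour array lay well below the lower parental array, and the difference was -1.01 ± 0.06 (adjusted p = 2.45e-09), or 2.01-fold lower. All 4 EBP probe sets fell, by 0.35 to 1.01. LSS, which closes the ring to form lanosterol, stood at 9.60 and 9.59 in T2, 9.58 and 9.70 in T3, 9.79 and 9.79 in T6, 9.97 and 9.91 in T8, and, in the parental cells, at 10.30 and 10.30. Every tumour array lay below both parental arrays (-0.56 ± 0.05, adjusted p = 1.09e-06), and 2 of 3 LSS probe sets fell. DHCR7, the reductase that completes cholesterol, went the other way at 9.11 and 9.19 in T2, 9.18 and 9.36 in T3, 9.44 and 9.42 in T6, 9.47 and 9.46 in T8, and, in the parental cells, at 8.87 and 8.88. It rose by 0.46 ± 0.06 (adjusted p = 3.05e-05) without overlap. HSD17B7, a ketosteroid reductase, rose by 0.28 ± 0.07, by a probe set that may match other transcripts, and SC5D, a sterol desaturase, by 0.17 ± 0.06. The call of SC5D ended without parental replicate 2 (0.09), T3 replicate 2 (0.16), T6 replicate 1 (0.16) or either T8 array (0.17). SQLE, the squalene epoxidase (0.16 ± 0.07), and the reductase TM7SF2 (-0.06 ± 0.08) were not called. Nor were MSMO1 (0.05 ± 0.08) and NSDHL (-0.02 ± 0.06), enzymes that help strip methyl groups from lanosterol, whose tumours lay on both sides of the parental cells.

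Of the regulators and the sterol carrier 2 of 6 rose and none fell (median 0.14). The count of rises lay near the share of all genes, of which 25.5% rose and 16.8% fell. STARD4, a cytosolic carrier that moves cholesterol between membranes, stood at 8.84 and 9.12 in T2, 8.75 and 8.93 in T3, 8.91 and 8.91 in T6, 9.08 and 8.91 in T8, and, in the parental cells, at 8.03 and 7.82. All 8 tumour arrays exceeded both parental arrays, and the difference was 1.002 ± 0.09 (adjusted p = 3.06e-07). The 4 tumours lay close together in STARD4, with arrays from 8.75 to 9.12. SREBF2 stood at 8.05 and 8.04 in T2, 7.99 and 8.12 in T3, 8.24 and 8.21 in T6, 8.38 and 8.31 in T8, and, in the parental cells, at 7.86 and 7.76. It rose by 0.36 ± 0.07 (adjusted p = 0.000724) without overlap. Of its other probe sets one also rose (0.24 ± 0.09) and one was not called (-0.23 ± 0.13). SREBF1 stood at 9.03 and 8.91 in T2, 8.80 and 8.80 in T3, 9.07 and 8.99 in T6, 8.93 and 8.81 in T8, and, in the parental cells, at 8.88 and 8.84 (0.06 ± 0.06, not called). SCAP (0.07 ± 0.06), INSIG1 (0.20 ± 0.09) and INSIG2 (0.05 ± 0.07), the escort and the retention proteins, were not called either. INSIG2 stood at 9.12 and 9.32 in T2, 9.06 and 9.13 in T3, 9.30 and 9.35 in T6, 9.18 and 9.08 in T8, and, in the parental cells, at 9.21 and 9.07, overlapping between tumours and parental cells.

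Every tumour array lay above both parental arrays for 10 of 28 members and below both for 2 (EBP and LSS). Over all genes the shares were 15.7% above and 12.4% below. The counts depended on parental replicate 2, without which 10 members were called higher, and 16.7% of all genes instead of 25.5%. HMGCS1, MVD, FDPS, HSD17B7 and SC5D lost the call. Without parental replicate 1 ACACA lost it as well as MVD (0.19 for ACACA). Repeated quantile normalisation turned the split of all called genes from 3801 higher and 2513 lower into 3268 higher and 3501 lower, with 14 members higher and 4 lower. With the mean over the probe sets of a gene 11 were called higher (24.2% of all genes), and HMGCS1, IDI1, SC5D, SREBF2, ACACA and FASN lost the call.

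**Figure D2:**
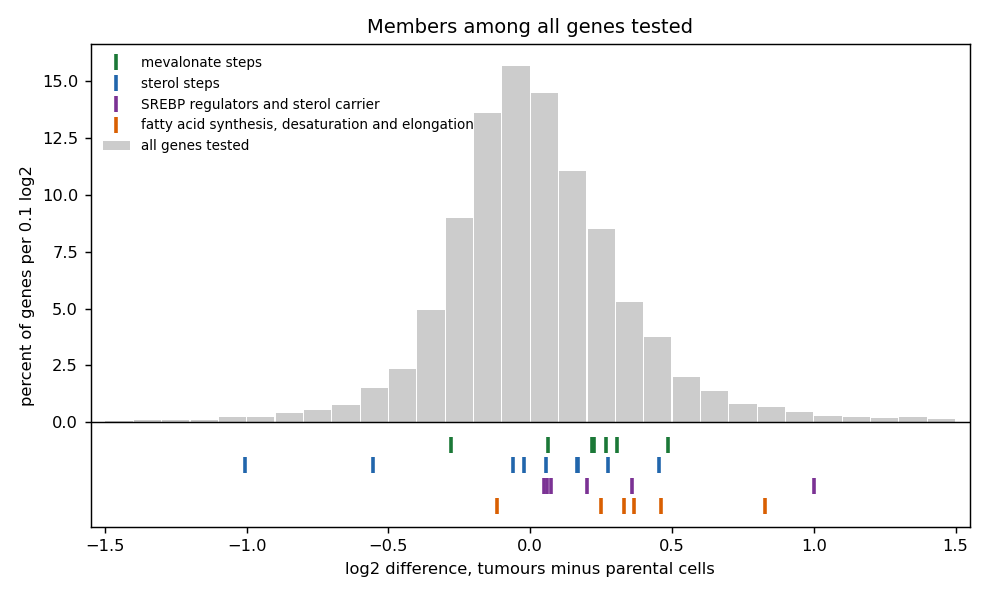
Log2 difference between the 4 tumours and parental cells. Bars give the percent of all 14929 genes tested per interval of 0.1 (values beyond 1.5 in either direction are not drawn) and coloured ticks the 28 members by role. All fatty acid ticks but that of ELOVL6 lie above 0.2, and the sterol ticks run from EBP at -1.01 to DHCR7 at 0.46.

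The tumours were also set against parental cells one by one, 4 comparisons that share the 2 parental arrays. In T2 9 members rose and 5 fell (17.5% and 15.5% of all genes). In T3 13 rose and 2 fell (22.1% and 15.8%). In T6 16 rose and 3 fell (20.7% and 13.7%). In T8 20 rose and 3 fell (28.7% and 15.1%). STARD4 was at 1.05 in T2, 0.91 in T3, 0.98 in T6 and 1.07 in T8, and EBP at -1.27, -0.999, -0.88 and -0.88 in the same order of tumours. EBP was lowest in T2, and SCD was 0.48 in T2 and 0.98 in T3. Leaving out single arrays lowered the counts of members higher to 8 in T3 (without T3 replicate 2 or parental replicate 2) and to 9 in T6 (without either T6 array). For T8 they fell to 12 without parental replicate 2 and to 13 without T8 replicate 1, and T8 gave 10 after repeated quantile normalisation. In T6 the count was 10 without parental replicate 2. The shares of all genes in these runs are not given here.

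**Figure D3:**
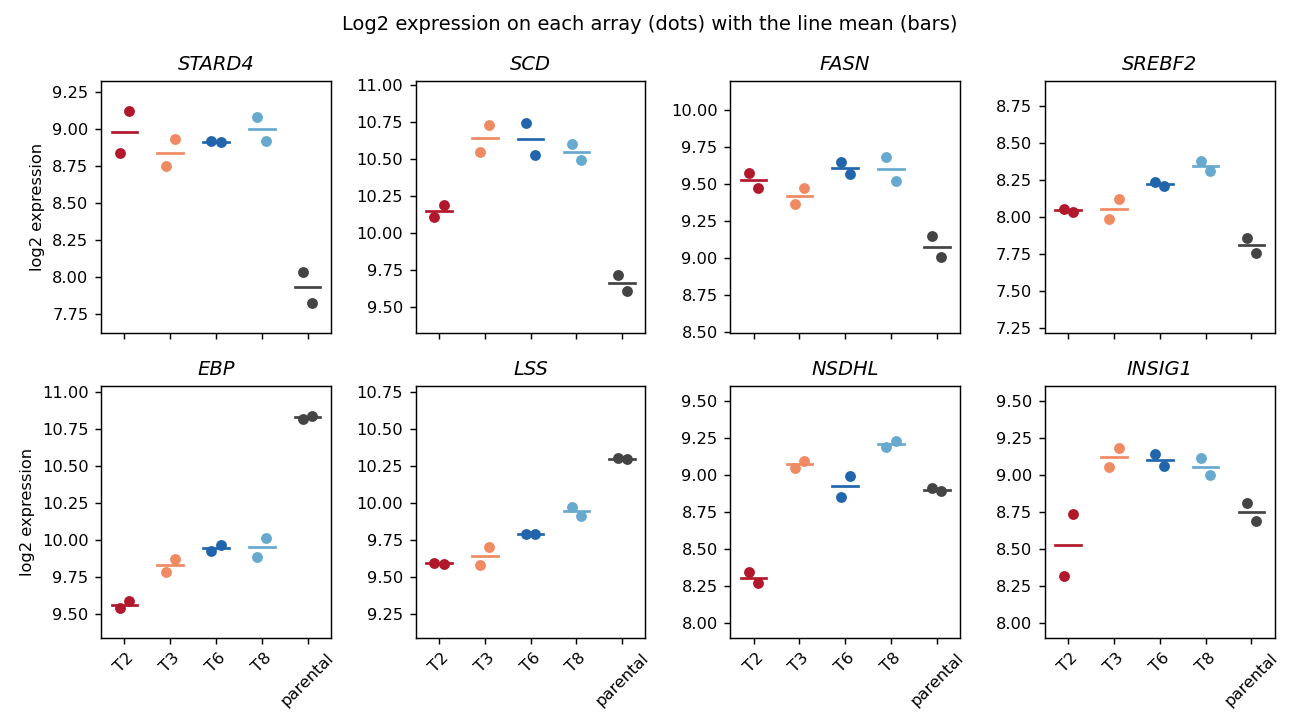
Log2 expression of 8 members on each array (dots, 2 per line) with the line mean (horizontal bar), in T2 and T3 (resistant), T6 and T8 (sensitive) and parental cells. Each panel spans 1.7 log2 units. STARD4, SCD, FASN and SREBF2 lie higher in all tumours, EBP and LSS lower, and NSDHL and INSIG1 are lowest in T2.

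Setting resistant against sensitive tumours asked which of these genes differ with the response to the drug. With the tumour as the replicate, 2 against 2, limma called 0 of 28 members and 0% of all genes, and 0 members had an unadjusted p under 0.05. The lowest unadjusted p-values were 0.0532 for SQLE and 0.0671 for IDI1 (adjusted p = 0.894 for both). A line as a random block over arrays also called 0 members. On simulated data the fit with the tumour as replicate recovered 38 of 100 genes changed by 1 log2 unit. The largest difference of a member was -0.38, so 0 calls do not show equal levels in the 2 classes. Over the arrays of these 4 tumours, 4 against 4, 10 members were lower in the resistant tumours and 0 higher. Over all genes 14.2% were lower and 4.76% higher, and the median member stood at -0.099 against -0.022 for the median gene. These calls describe the 4 tumours and not the response classes.

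By role, 5 of 9 sterol enzymes, 3 of 6 regulators and carrier, 1 of 7 mevalonate enzymes and 1 of 6 fatty acid members were lower. NSDHL stood at 8.35 and 8.27 in T2, 9.05 and 9.10 in T3, 8.86 and 8.99 in T6, 9.19 and 9.23 in T8, and, in the parental cells, at 8.91 and 8.89. Its difference of -0.38 ± 0.06 (adjusted p = 0.000453) was the largest of the list. Both T2 arrays were low, and both T3 arrays lay inside the range of the sensitive arrays. IDI1 stood at 10.68 and 10.79 in T2, 10.44 and 10.55 in T3, 10.86 and 10.95 in T6, 10.92 and 10.96 in T8, and, in the parental cells, at 10.45 and 10.55. Here both resistant tumours lay below both sensitive ones (-0.31 ± 0.05, adjusted p = 0.000786), T3 at the parental level. SQLE stood at 8.29 and 8.31 in T2, 8.27 and 8.38 in T3, 8.68 and 8.50 in T6, 8.68 and 8.54 in T8, and, in the parental cells, at 8.31 and 8.27. The resistant arrays lay from 8.27 to 8.38, around the parental arrays, and all 4 sensitive arrays lay higher (-0.29 ± 0.06, adjusted p = 0.00662). The other SQLE probe set that passed the filter was not called (-0.09 ± 0.07).

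The values of LSS, EBP, DHCR7, SREBF2 and SCD given above showed the other differences. LSS differed by -0.25 ± 0.05 and SREBF2 by -0.23 ± 0.06, with every resistant array under every sensitive one. EBP differed by -0.25 ± 0.05 and DHCR7 by -0.24 ± 0.06, also without overlap. The other probe sets of EBP (-0.17 ± 0.06, -0.05 ± 0.07 and 0.10 ± 0.12), LSS (-0.26 ± 0.09 and -0.01 ± 0.10) and SREBF2 (-0.21 ± 0.08 and 0.12 ± 0.11) were not called, and neither were those of SCD (-0.23 to -0.10). The second sets of DHCR7 (-0.19 ± 0.06) and NSDHL (-0.28 ± 0.07) and the other 3 of IDI1 (-0.69 to -0.26) were lower. SCAP, which carries SREBPs to the Golgi, stood at 9.61 and 9.56 in T2, 9.69 and 9.71 in T3, 9.91 and 9.81 in T6, 9.92 and 9.94 in T8, and, in the parental cells, at 9.61 and 9.78. Every resistant array lay below every sensitive one, and the difference was -0.25 ± 0.05 (adjusted p = 0.00488). INSIG1 stood at 8.32 and 8.73 in T2, 9.05 and 9.18 in T3, 9.14 and 9.05 in T6, 9.11 and 8.998 in T8, and, in the parental cells, at 8.81 and 8.69. Its difference (-0.26 ± 0.08, adjusted p = 0.0392) and that of SCD (-0.20 ± 0.06, adjusted p = 0.0343) went with low T2 arrays, while T3 lay at or near the sensitive arrays. All 3 INSIG1 probe sets were lower (-0.26 to -0.25). Every resistant array lay below every sensitive array for 8 of 28 members (IDI1, SQLE, LSS, EBP, DHCR7, SREBF2, SCAP and FADS2), against 6.44% of all genes.

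Without T2, that is for T3 against the sensitive pair, 5 members were lower and 4 higher (15.7% and 8.66% of all genes). IDI1, SQLE, LSS, SREBF2 and SCAP remained lower. The calls of EBP (-0.12) and DHCR7 (-0.18) ended, as did those of NSDHL (0.01), INSIG1 (0.04) and SCD (0.05), which changed sign. FDPS (0.13) and TM7SF2 (0.03), not called either way, also changed sign, and ACAT2 (0.32), PMVK (0.30), MSMO1 (0.38) and HSD17B7 (0.24) were higher in T3. Without T3, 14 members were lower in T2 (17.9% of all genes). Without T8, 5 members were lower in T2 and T3 than in T6 (7.52% of all genes), and LSS, DHCR7, SREBF2, INSIG1 and SCD lost the call. The calls of INSIG1, SCD and SREBF2 depended on the setting and on single arrays. INSIG1 and SCD ended after repeated quantile normalisation, on centred medians and without T2 replicate 1 (-0.15 and -0.18), T3 replicate 1 (-0.22 and -0.15), T6 replicate 1 (-0.23 and -0.15), T8 replicate 1 (-0.23 and -0.17) or T8 replicate 2 (-0.28 and -0.23). SREBF2 ended after repeated quantile normalisation (-0.15) and without T3 replicate 1 (-0.20), T6 replicate 1 (-0.23), T6 replicate 2 (-0.24) or T8 replicate 1 (-0.22). INSIG1 also ended without T6 replicate 2 (-0.28). The mean over probe sets left 6 members lower (13.4% of all genes), without SQLE, EBP, SREBF2 and SCD. Over all genes the split of 711 higher and 2126 lower became 1428 higher and 1559 lower after repeated quantile normalisation, with 7 members lower, and 665 higher and 1527 lower on centred medians, with 8 members lower.

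**Figure D4:**
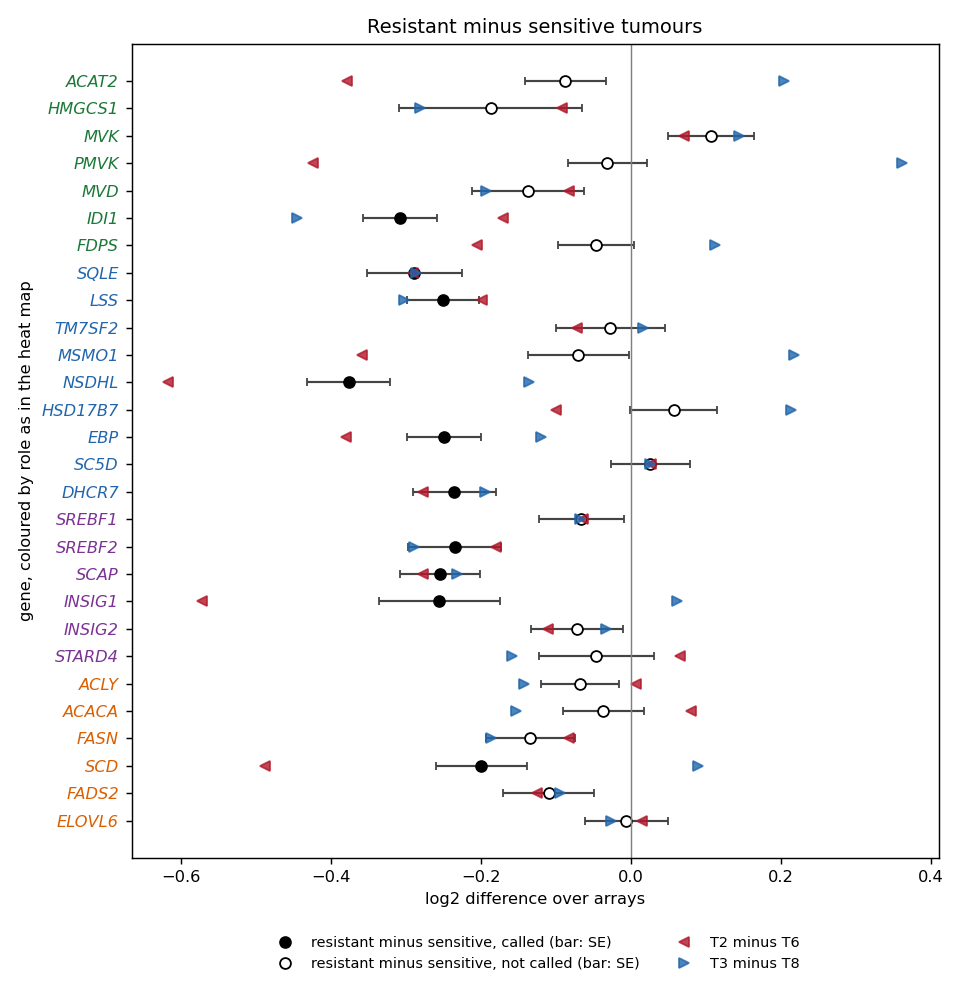
Log2 difference between resistant (T2, T3) and sensitive (T6, T8) tumours for each member, with the SE over arrays (bars). Filled circles passed the test over arrays. Triangles give T2 minus T6 and T3 minus T8, which differ in sign for ACAT2, PMVK, MSMO1, INSIG1 and SCD, among others.

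The pairs of tumours showed how far members vary within a response class. Between the resistant tumours T2 and T3, 10 members were lower in T2 and 2 higher (16.9% and 13.9% of all genes). MSMO1, named with ACAT2 after the values were seen, stood at 9.03 and 9.24 in T2, 9.95 and 10.12 in T3, 9.51 and 9.48 in T6, 9.84 and 9.80 in T8, and, in the parental cells, at 9.70 and 9.44, which put T2 lowest and T3 highest of the 5 lines (-0.90 ± 0.10, adjusted p = 3.97e-06). ACAT2 stood at 10.13 and 10.30 in T2, 10.97 and 11.11 in T3, 10.57 and 10.62 in T6, 10.88 and 10.79 in T8, and, in the parental cells, at 10.42 and 10.31, again with T2 lowest and T3 highest (-0.82 ± 0.08, adjusted p = 1.13e-06). NSDHL differed by -0.77 ± 0.08, PMVK by -0.66 ± 0.07, INSIG1 by -0.59 ± 0.11 and SCD by -0.49 ± 0.09. HSD17B7, FDPS, SC5D and EBP were lower in T2 by 0.27 to 0.36, whereas IDI1 (0.24 ± 0.07) and ACACA (0.21 ± 0.08) were higher in T2. The differences of MSMO1, ACAT2, NSDHL, PMVK, INSIG1 and SCD between T2 and T3 were larger than that of any member between the class means. Each class mean averages 2 tumours, so these differences are not of like kind. Between single tumours of the 2 classes, NSDHL differed by -0.62 ± 0.08 for T2 minus T6, more than INSIG1 or SCD between T2 and T3.

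Between the sensitive tumours T6 and T8, 4 members were lower in T6 and 0 higher (10.4% and 4.66% of all genes). They were MSMO1 (-0.32 ± 0.10), NSDHL (-0.29 ± 0.08), SC5D (-0.29 ± 0.07) and ACAT2 (-0.24 ± 0.08), which were also lower in T2 than in T3. This count was 4 without a parental array but 0 without T6 replicate 1 or either T8 array, and 1 without T6 replicate 2. Resistant T2 against sensitive T6 gave 9 members lower and 0 higher (6.38% and 3.08% of all genes), led by NSDHL (-0.62 ± 0.08), INSIG1 (-0.57 ± 0.11) and SCD (-0.49 ± 0.09). Without T2 replicate 1 or T6 replicate 2 that count was 4, and without T6 replicate 1 it was 3. Resistant T3 against sensitive T8 gave 5 members lower and 1 higher (13.8% and 4.66% of all genes). IDI1 (-0.45 ± 0.07) and LSS (-0.30 ± 0.07) led the lower ones and PMVK (0.36 ± 0.07) was higher. Without T3 replicate 1 or T8 replicate 1 there was 1 lower member, and without either T6 array or T8 replicate 2 there were 2. For T6 against T8 and for T2 against T6 and T3 against T8, shares of all genes without single arrays are not given. SCAP was called lower in both of these pairs (-0.28 ± 0.08 and -0.23 ± 0.08). SQLE had differences of -0.29 ± 0.09 (adjusted p = 0.0568, not called) and -0.29 ± 0.09 (adjusted p = 0.0393).

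Both T2 arrays lay below all 6 arrays of the other tumours for 10 of 28 members, a count made after the values were seen, against 16.0% of all genes. The 10 were ACAT2, PMVK, FDPS, MSMO1, NSDHL, HSD17B7, EBP, SCAP, INSIG1 and SCD. For T3 the same held for 5 members (MVD, IDI1, SREBF1, ACACA and FASN), against 15.4% of all genes, a share near that of the members. For T6 and T8 it held for 0 members, against 5.20% and 5.26% of all genes.

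Other genes of the pathways were taken from lists written down together with the members. Of 22 further genes of sterol and isoprenoid synthesis 19 were measured. Of these 11 rose and 2 fell against parental cells (median 0.15), against 25.5% and 16.8% of all genes. PGGT1B, a subunit of a geranylgeranyl transferase, rose by 0.56 ± 0.11, NUS1, which makes dolichol, by 0.45 ± 0.09, RABGGTA, which prenylates Rab proteins, by 0.42 ± 0.06, and COQ2 of ubiquinone synthesis by 0.32 ± 0.08. LBR, a nuclear envelope sterol reductase (-0.21 ± 0.06), and CYB5R3, a cytochrome b5 reductase (-0.14 ± 0.05), fell. LBR averaged 11.58 in T3, above 11.51 in the parental cells. NUS1 averaged 8.83 in T2, close to 8.81 in the parental cells. Between resistant and sensitive tumours over arrays TMEM97 (-0.25 ± 0.04), a sterol-regulated membrane protein, and PDSS1 (-0.25 ± 0.05) were lower and ICMT (0.16 ± 0.04) higher. TMEM97 averaged 10.99 in resistant T3 and 10.89 in sensitive T6.

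Of 14 genes for SREBP processing and sterol-regulated degradation 11 were measured, and 5 rose and 2 fell in the tumours (25.5% and 16.8% of all genes). PAQR3, a Golgi protein that binds SCAP and SREBP, rose by 0.93 ± 0.11 and SPRING1, which the Golgi cleavage of SREBP requires, by 0.77 ± 0.06. RNF145 (0.45 ± 0.06), a ubiquitin ligase, and AUP1 (0.27 ± 0.05) rose as well. MBTPS2, a protease that releases SREBPs from the membrane, fell by 0.88 ± 0.05, with means of 9.87 in T2, 9.55 in T3, 10.14 in T6, 9.74 in T8, and 10.71 for the parental cells. ERLIN1 also fell (-0.22 ± 0.05). UBE2G2 (-0.35 ± 0.05) and MBTPS2 (-0.23 ± 0.05) were lower over the resistant arrays than over the sensitive ones. The tumours overlapped, since UBE2G2 averaged 10.48 in resistant T3 and 10.33 in sensitive T6, and MBTPS2 9.87 in resistant T2 and 9.74 in sensitive T8.

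Of 22 genes of sterol uptake, storage, movement and efflux 18 of 19 measured genes passed the filter. Of these 1 rose and 4 fell (25.5% and 16.8% of all genes). ABCA1, the cholesterol exporter (-0.57 ± 0.13), and GRAMD1B, which carries cholesterol from the plasma membrane (-0.50 ± 0.11), fell. So did the hydroxylase CH25H (-0.36 ± 0.10) and lysosomal NPC2 (-0.24 ± 0.05), whereas OSBPL2 (0.24 ± 0.07) rose. The fall of CH25H did not hold in T2, which averaged 6.17 against 5.78 in the parental cells. Resistant tumours were lower than sensitive ones in 5 and higher in 1 (14.2% and 4.76% of all genes). NR1H3, the oxysterol receptor LXR alpha (-0.42 ± 0.08), the lipoprotein receptor SCARB1 (-0.40 ± 0.05) and OSBPL2 (-0.28 ± 0.06) led, and CH25H was higher (0.42 ± 0.09), with T2 at 6.17 and the other tumours at 5.07 to 5.35.

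Of 37 other genes of fatty acid and glycerolipid synthesis 30 of 33 measured genes passed the filter. Of these 10 rose and 4 fell (25.5% and 16.8% of all genes). The fatty acid binding protein FABP5 (0.91 ± 0.07), the acyltransferase GPAM (0.84 ± 0.09), SCD5 (0.76 ± 0.08) and FADS3 (0.75 ± 0.05) rose most. The acyl-CoA synthetase ACSL5 (-0.56 ± 0.06), AGPAT2 (-0.50 ± 0.06), DGAT2 of triglyceride synthesis (-0.50 ± 0.07) and PNPLA3 (-0.30 ± 0.10) fell. In resistant tumours 8 were lower than in sensitive ones and 1 was higher (14.2% and 4.76% of all genes). MID1IP1, an activator of ACACA (-0.32 ± 0.06), DGAT1 (-0.30 ± 0.06) and OXSM (-0.28 ± 0.05) led the lower ones. The malic enzyme ME1 was higher (0.54 ± 0.08), with means of 9.17 in T2, 9.02 in T3, 8.86 in T6 and 8.23 in T8. Of 16 proliferation genes 5 rose and 4 fell against parental cells (median -0.008), against 25.5% and 16.8% of all genes. Of the same 16 genes 2 were higher and 5 lower in resistant than in sensitive tumours over arrays (4.76% and 14.2% of all genes).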

How the data were processed

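RNA of 5 lines (2 arrays each) was measured on Affymetrix arrays. Per the submitters' processing notes, affy, RMA and limma were used, with no version given. The deposited values are log2 expression for 54675 probe sets, with array medians from 5.43 to 5.57. Of these, 41091 carried 1 gene symbol, 1801 several and 11721 none. Symbols were updated by gene ID to RefSeq. Arrays of one line correlated at 0.996 to 0.998. The number of arrays limits the precision.

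Genes reaching log2 5 on at least 2 arrays were tested in limma 3.58.1 (R 4.3.3) with a mean-variance trend, two-sided, after a check on simulated data. One fit had a coefficient per line over all arrays, and another used line means with the tumour as replicate. Alternatives changed scaling, filter, probe set choice, trend, replicate block and the arrays included. Leaving out whole tumours was planned for the fit with the tumour as replicate and was added to the fit over arrays after seeing the data.

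The members, the other lists and the tests were chosen with earlier results of these data known. Per-array values are given for members called between resistant and sensitive tumours, for the 6 largest called per direction against parental cells and for SREBF1, SREBF2, SCAP, INSIG1 and INSIG2. From each other list the 4 largest called per direction against parental cells and the 3 largest between resistant and sensitive tumours are named.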

Additional observations from a re-analysis of the deposited data

Results flagged for a closer look

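The T2 mean of INSIG1 was 8.53, while the other tumour means ran from 9.05 to 9.12. Its gap to the nearest tumour was 0.896 of the whole range, above Dixon's critical value for 4 values. Of 28 members checked, 1 stood out in this way, and chance alone marks about 1 in 20 such groups.

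Probe sets shared with a second gene were not used for the members. Both sets annotated to LRRD1 and CYP51A1 (CYP51A1 is lanosterol demethylase) were higher in tumours than in parental cells, by 0.43 and 0.24 on the log2 scale. The 3 sets annotated to MIR1908 and FADS1, a fatty acid desaturase, were higher by 0.72, 0.58 and 0.59. Which of the paired genes gave the signal was not tested.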

How the results depend on the processing

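With tumours as the replicates, resistant against sensitive, no member was called under any alternative run, the replicate block included (0). Same-numbered arrays deviated together in 4 of 10 pairs of lines (r = 0.50 for T2 and T3, 0.24 for T6 and T8, 0.15 for T6 and parental cells and 0.31 for T8 and parental cells). They deviated oppositely in the other 6 (-0.39 to -0.14), which join T2 or T3 with T6, T8 or parental cells. The 2 arrays of a line deviate from their mean by equal and opposite amounts. In these 6 pairs arrays of unlike number therefore deviated together. The numbers were not taken to pair the arrays. No fit allowed for a spread shared by arrays of unlike number, and p-values over arrays treat the arrays as independent. With the replicate block, members lower in resistant tumours over arrays numbered 8 (13.0% of all genes) and those higher against parental cells 14 (24.7%). Members lower numbered 2 for T6 minus T8 and 3 for T3 minus T8. For single tumours and pairs of tumours, shares of all genes in the runs of this section are not given. Leaving out single arrays gave 7 to 10 members lower in resistant tumours (7.31% to 17.9% of all genes). Against parental cells it gave 10 to 15 higher (16.7% to 27.9% of all genes) and 3 to 4 lower (10.8% to 18.2%). It gave 6 to 10 higher in T2, 8 to 13 in T3, 9 to 16 in T6 and 12 to 19 in T8, and 7 to 10 lower for T2 minus T3, 0 to 4 for T6 minus T8, 3 to 9 for T2 minus T6 and 1 to 5 for T3 minus T8. Only probe sets without a shared-sequence suffix, which leave 18 members, gave 6 higher in tumours than in parental cells (23.5% of all genes). They gave 4 higher in T2, 7 in T3, 8 in T6 and 11 in T8. Members lower numbered 5 for T2 minus T3, 5 for T2 minus T6 and 1 for T6 minus T8. Fewer members were tested there. IDI1 then stood at -0.0047 against parental cells. The mean over probe sets gave 6 lower in resistant tumours (13.4% of all genes), 2 for T6 minus T8 and 2 for T3 minus T8. Repeated quantile normalisation gave 10 higher in T8 and 2 lower for T3 minus T8, centred medians 2 for T6 minus T8 and 2 for T3 minus T8, and no trend 1 and 3; the cause was not tested. Without T2, 5 members were lower in T3, and ACAT2 (0.32), PMVK (0.30), MSMO1 (0.38), NSDHL (0.0067), INSIG1 (0.039) and SCD (0.046) changed sign, as did FDPS (0.13) and TM7SF2 (0.03), which were not called, and so did NSDHL against parental cells (0.17, called). Without T8, 5 were lower. Against parental cells, leaving out T2 also brought SQLE, MSMO1 and INSIG1 a call as higher, and MVD lost its call. In that run 27.6% of all genes were called higher.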
